A study of Homo sapiens with 11 samples.

Results

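The collagen genes examined here were the chains whose symbol reads COL, a number, A and a number, together with LOX, LOXL1 to LOXL4, PLOD1 to PLOD3, P4HA1 to P4HA3 and SERPINH1, which modify or fold those chains. All 56 were named on the array, 44 chains and 12 enzymes or chaperones, among 20249 named genes, and each was read from its brightest probe. They were measured in A549 and HCC827, cell lines grown from human lung adenocarcinomas (LADC). A549 mock cells (3 replicates on 4 arrays) and HCC827 mock cells (2 replicates) carried the empty retroviral vector pMXs-Neo, and A549 TRIM58-WT (3 replicates) and HCC827 TRIM58-WT (2 replicates) carried the same vector with FLAG-tagged wild-type TRIM58, a tripartite motif protein. All groups had been selected with G418, and the methods say that clones were then isolated and tested for the exogenous protein. The study numbers clones of A549 but calls its HCC827 mock cells crude transfectants, so an A549 replicate may be a clone and an HCC827 replicate a mixed culture. The study asked which transcripts differ when TRIM58 is put back into lines that lack it.

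Collagens are proteins of the extracellular matrix in which 3 chains wind into a triple helix. Fibrillar types such as I, III, V and XI form the tensile fibres of connective tissue, type IV forms the sheet of the basement membrane that lies beneath lung epithelium, and types VI and VII form beaded filaments and anchoring fibrils. In the cell, prolyl 4-hydroxylases and lysyl hydroxylases modify the chains and SERPINH1 (HSP47) escorts the helix, and outside it the lysyl oxidases cross-link the finished molecules.

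Levels are log2 signals minus the 75th percentile of their array, so that 0 is the signal at that percentile, and a level of one probe cannot be set against that of another. A probe is described as detected on an array where Agilent's flag put it well above background. A gene was tested in a comparison when its probe was detected throughout at least 1 of the groups, that is on all its arrays, and it was called at an adjusted p under 0.05 in limma with a change of at least 2-fold. Nothing in the labels says whether the replicates were grown separately, and p-values then measure the spread between these samples, which may be technical in part.

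The TRIM58 probe did not follow the labels. It was detected on only 1 of the 11 arrays, A549 mock replicate 3, at -0.71, and it lay between -5.33 and -4.63 on the other A549 arrays, those labelled TRIM58-WT included, and between -5.64 and -5.15 on the HCC827 arrays. Whether the probe lies within the transfected coding sequence was not analysed here, and whether any array carries a wrong label was not tested. Mock replicate 3 also stood apart over all probes. It correlated at 0.966 and 0.967 with TRIM58-WT replicates 2 and 3 and at 0.963 and 0.953 with mock replicates 1 and 2, and its 75th percentile of signal, 60.3, was close to theirs (62.5 and 56.6) and below the 90.5 to 103 of the other mock arrays. These 3 arrays and the second array of mock replicate 1 were on a different slide from the rest. The genes called in A549 are therefore also given without mock replicate 3.

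Of the 56 genes, 30 were detected throughout at least 1 group, 20 chains and 10 enzymes, and 19 on no array. Between these lay COL4A3, COL8A1, COL9A1, COL10A1, COL14A1, COL20A1 and LOXL4, detected on some arrays. Those never detected included COL1A2 and COL3A1, the partner chain of COL1A1 and the chain of type III collagen, together with COL2A1, COL6A3 and LOX. The number detected throughout a group was 21 in A549 mock, 24 in A549 TRIM58-WT, 19 in HCC827 mock and 20 in HCC827 TRIM58-WT, and 13 genes were detected on all 11 arrays. In whole cultures, fewer cells of a kind and less RNA per cell cannot be told apart.

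**Figure D1:**
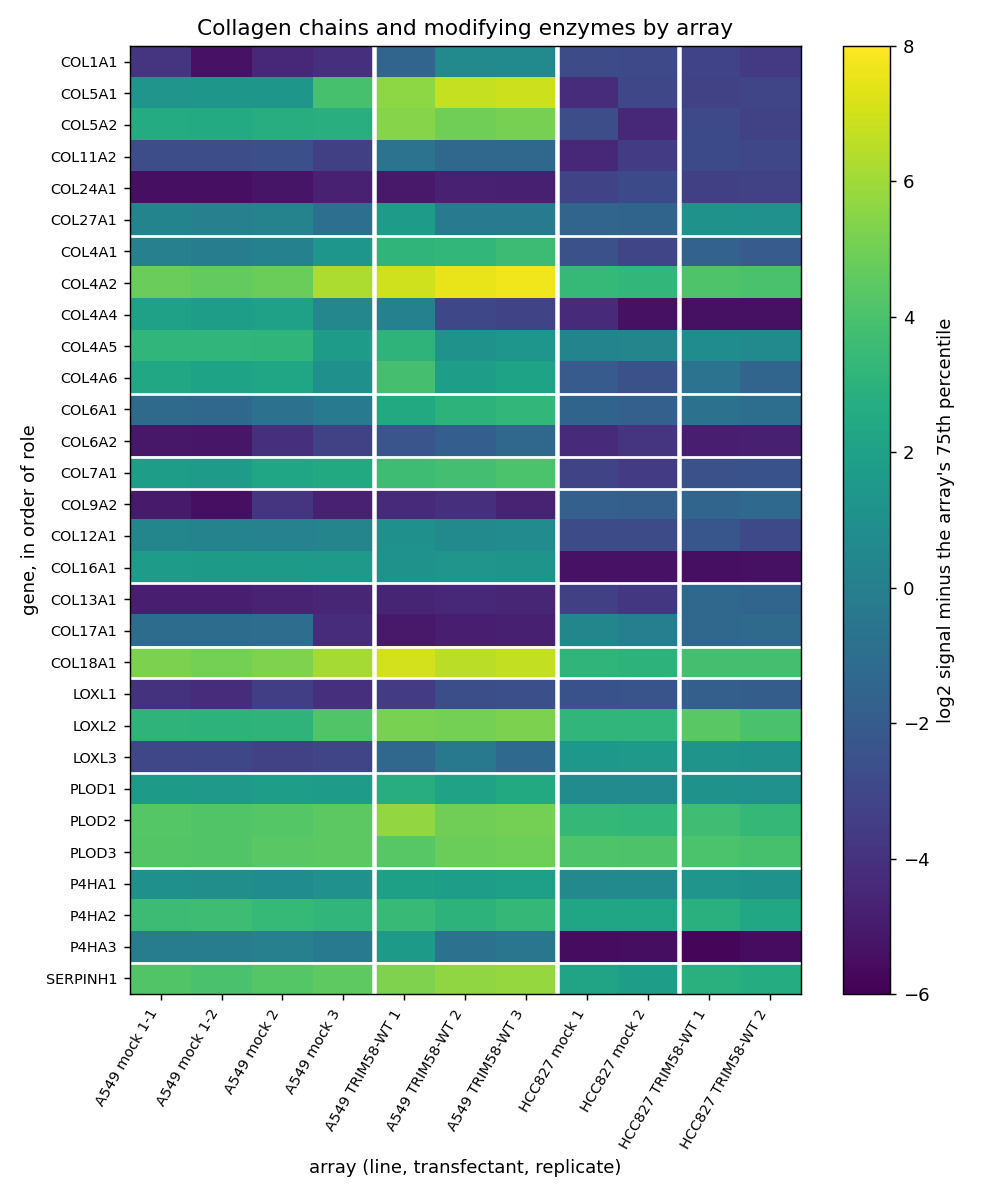
The 30 collagen genes detected throughout at least 1 group, in order of role (rows), on the 11 arrays (columns); colour is the log2 signal minus the array's 75th percentile, and white lines part roles and groups. COL1A1, COL5A1, COL4A1 and COL6A1 are brighter on the 3 A549 TRIM58-WT arrays than on the A549 mock arrays, and COL16A1 and P4HA3 are dark on all 4 HCC827 arrays.

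In A549, 12 collagen genes were higher in TRIM58-WT than in mock and none was called lower. They were the fibrillar chains COL1A1, COL5A1, COL5A2 and COL11A2, the basement membrane chains COL4A1 and COL4A2, the filament chains COL6A1 and COL6A2, the anchoring fibril chain COL7A1, the lysyl oxidases LOXL2 and LOXL3, and the chaperone SERPINH1. These were 12 of 25 tested, where 7.94% of all 11182 genes tested were called, 3.89% higher and 4.05% lower. The log2 change was above 0 in 21 of the 25, beside 52.4% of all genes. Its median was 1.24 beside 0.03 for all genes. COL1A1, COL6A2, COL11A2 and LOXL3 entered the test only through TRIM58-WT, so that they had to be higher there; of the 20 that passed in both groups, 8 were called. The remaining genes were not tested. With normexp background correction the 4 that entered through TRIM58-WT lost their calls and their log2 changes were 1.23, 0.48, 0.51 and 0.68, in the order above, while the other 8 were called. With Welch's test, which the methods name for comparing groups, none of the 12 was called after adjustment, beside 24 of all 16924 probes. Of the 25 genes, 16 had an unadjusted p under 0.05 by that test (limma gave 19). The share of all genes under that p was not counted, in this or any later comparison.

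The 12 calls were also read by slide and with single replicates left out. With slide as a block, and the 2 arrays of mock replicate 1 counted separately, 14 genes were called, 13 higher, the same 12 among them. Slide 1 held 1 of the 3 TRIM58-WT arrays. Each of the 12 was higher in TRIM58-WT on both slides. The log2 differences of array means were 1.03 to 4.27 on slide 1 and 1.47 to 5.36 on slide 2. The same arrays gave the calls, so that this direction was largely fixed in advance. Between the arrays of mock replicate 1 on the 2 slides, 11 of the 12 differed by under 0.25. COL1A1, below background in mock, differed by -1.45. Mock replicate 3 lay above the mean of mock 1 and 2 for 11 of the 12, at a median of 27.4% of the log2 distance to the TRIM58-WT mean and at most 56.2%. Without it 15 genes were called, 14 higher, the same 12 among them, and over all probes 2193 beside 1171 in the main fit. Without mock replicate 1 or mock replicate 2 the collagen count was 2 in each case, COL5A2 and COL6A1, with 297 and 360 over all probes. Leaving out TRIM58-WT replicate 2 gave 5 calls (372 over all probes), and leaving out replicate 3 gave 4 (313). Those 2 replicates correlated at 0.993, the highest of any pair. Counting their mean as 1 sample left 4 calls, COL1A1, COL5A2, COL6A1 and LOXL3, and 333 over all probes.

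**Figure D2:**
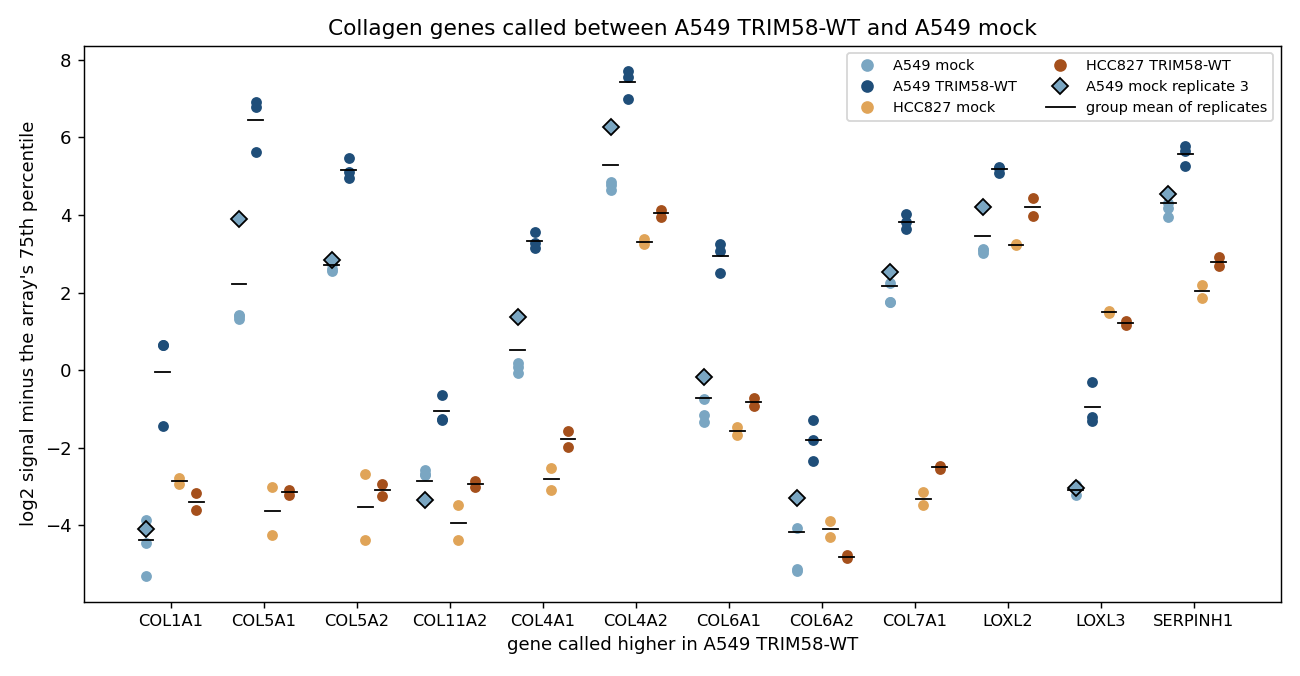
Signal of the 12 genes called higher in A549 TRIM58-WT, on every array; each point is 1 array, bars are group means over replicates, and diamonds mark A549 mock replicate 3. The TRIM58-WT points lie above every A549 mock point for each gene. The genes were picked by their calls on these same arrays, so this separation is no further support. How many of all genes separated in A549 was not counted. The diamond lies 39.1% to 56.2% of the way to the TRIM58-WT mean for COL5A1, COL4A1, COL4A2, COL6A2 and LOXL2.

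COL5A1, the chain of type V collagen around which fibrils of type I start, had the signals 1.31, 1.42, 1.39 and 3.90 on the mock arrays 1-1, 1-2, 2 and 3 and 5.62, 6.79 and 6.92 on the TRIM58-WT arrays. The groups did not overlap, and mock 3 lay midway between them. The log2 fold change was 4.22 (SE 0.75, adjusted p = 0.0236), and 5.06 (adjusted p = 0.00258) without mock 3. A second probe of the gene gave 4.56. COL5A2, its partner chain, read 2.61, 2.54, 2.73 and 2.84 on the mock arrays and 5.47, 4.94 and 5.10 on the others. Here mock 3 lay with the other mock arrays, and the log2 fold change of 2.46 (SE 0.20, adjusted p = 0.00199) was called in each of the 6 fits that left out a replicate. The third chain, COL5A3, was above background on no array.

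COL1A1, the main chain of type I collagen, was at background, not well above it, on the 4 mock arrays (-3.87, -5.32, -4.46 and -4.10) and was detected on each TRIM58-WT array (-1.46, 0.64 and 0.65). It was at least 7.13-fold higher in TRIM58-WT, where the mock level is only a bound (adjusted p = 0.0105; 0.0161 without mock 3). TRIM58-WT replicate 1, on slide 1, was lower than the others. COL1A2, which joins COL1A1 in type I collagen, read between -5.22 and -4.52 on all 7 A549 arrays, at background. COL3A1, which lies in the same fibres, read between -5.13 and -4.34, also at background.

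COL11A2, a chain of type XI collagen, read -2.72, -2.69, -2.58 and -3.34 in mock, detected on 2 of 4 arrays, and -0.65, -1.26 and -1.29 in TRIM58-WT. Its log2 fold change was 1.81 (SE 0.29, adjusted p = 0.0162; 1.57 and 0.0181 without mock 3, which was the lowest array). The gene's other probes were detected on at most 1 array of a group. COL27A1, a fibrillar chain of cartilage, had 0.30, 0.08, 0.25 and -0.89 in mock against 1.68, -0.19 and -0.21 in TRIM58-WT, so the groups overlapped and it was not called (0.57, adjusted p = 0.606). COL24A1 was not detected on any A549 array.

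Type IV collagen has 6 chains, whose genes lie as head-to-head pairs, COL4A1 with COL4A2 on chromosome 13, COL4A3 with COL4A4 on chromosome 2, and COL4A5 with COL4A6 on chromosome X. In the RefSeq promoter table (GRCh38.p14) 126, 418 and 379 bases lie between the first listed starts of each pair. COL4A4 as annotated reaches to 227164488, nearer to COL4A3 than its first listed start at 227164205. The whole stretch between COL4A1, read on the minus strand, and COL4A2, read on the plus strand, is shown because both genes rose in A549. The same length before COL4A5 is shown for a pair not called in A549. That length is only part of the 379 bases between COL4A5 and COL4A6. In HCC827 both COL4A5 (0.39) and COL4A6 (1.18) had higher TRIM58-WT arrays, without a call. No stretch of the third pair is shown. Capitals mark CCAAT and GGGCGG, searched on both strands. CCAAT was in 21.1% and GGGCGG in 34.6% of the 126-base stretches before the 35116 starts in that table, and 7.39% held both, as the first stretch does, without overlap. The second holds neither, but does not span the whole distance to COL4A6. Whether either motif goes with a joint change of a pair was not tested. Of the 42 collagen genes with an entry, 12 (28.6%) held CCAAT and 23 (54.8%) GGGCGG. These are shares of genes, and a gene can have several listed starts. They cannot be set against the shares of starts, and whether collagen genes hold either motif more often was not tested.
Between COL4A1 and COL4A2, chr13:110307158-110307283, plus strand: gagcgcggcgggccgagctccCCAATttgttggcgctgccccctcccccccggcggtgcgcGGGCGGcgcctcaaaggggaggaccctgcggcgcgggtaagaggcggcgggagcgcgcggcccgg
Before COL4A5, chrX:108439712-108439837, plus strand: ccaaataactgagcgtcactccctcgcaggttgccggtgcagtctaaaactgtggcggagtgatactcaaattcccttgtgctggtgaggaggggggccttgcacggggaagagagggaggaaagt

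COL4A1 and COL4A2, which join in the commonest type IV helix of basement membranes, were both higher in A549 TRIM58-WT. COL4A1 read 0.09, -0.07, 0.17 and 1.36 in mock against 3.14, 3.28 and 3.57 in TRIM58-WT, so that the log2 fold change was 2.82 (SE 0.38, adjusted p = 0.0104; 3.24 and 9.65e-04 without mock 3). COL4A2 read 4.79, 4.66, 4.85 and 6.27 in mock against 7.0, 7.56 and 7.71 in TRIM58-WT, a log2 fold change of 2.14 (SE 0.45, adjusted p = 0.0371; 2.64 and 0.00408 without mock 3). In both genes mock 3 lay above the other mock arrays and below every TRIM58-WT array, at 39.1% and 56.2% of the distance.

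The other type IV chains, which replace COL4A1 and COL4A2 in specialised basement membranes, were not called in A549. COL4A4 had the signals 2.03, 1.86, 2.02 and 0.50 in mock against 0.17, -2.97 and -3.13 in TRIM58-WT, a log2 fold change of -3.46 that missed the threshold (SE 0.94, adjusted p = 0.0743). Its groups did not overlap, TRIM58-WT 1 lay near mock 3, and it was detected on all mock arrays and on 1 of the 3 TRIM58-WT arrays. It was called lower in 6 alternatives, the fit with slide as a block among them. COL4A3, the neighbour of COL4A4, was detected on 2 mock arrays and on no TRIM58-WT array, and was not tested. COL4A5 (-0.82, adjusted p = 0.474) and COL4A6 (0.73, adjusted p = 0.513) overlapped between the groups; in both, mock 3 and TRIM58-WT 2 and 3 were below mock 1 and 2.

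Of the chains of type VI collagen, which forms beaded filaments close to cells, COL6A1 read -1.16, -1.35, -0.75 and -0.19 in mock against 2.5, 3.07 and 3.26 in TRIM58-WT. The log2 fold change was 3.67 (SE 0.33, adjusted p = 0.00306; 3.95 and 0.00198 without mock 3), and it was called without any of the 6 replicates. COL6A2 was at background on the 4 mock arrays (-5.12, -5.18, -4.09 and -3.30) and was detected on each TRIM58-WT array (-2.34, -1.81 and -1.30). It was at least 2.11-fold higher (adjusted p = 0.0384; 0.0167 without mock 3), and a second probe moved the same way, from between -5.26 and -4.56 to between -2.30 and -1.61. COL6A3, the long chain of the heterotrimer, was at background on all 11 arrays, as were COL6A5 and COL6A6.

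COL7A1, which anchors the basement membrane of epithelia to the tissue beneath, read 1.77, 1.75, 2.24 and 2.53 in mock against 3.64, 3.83 and 4.02 in TRIM58-WT, a log2 fold change of 1.65 (SE 0.24, adjusted p = 0.0130; 1.83 and 0.00852 without mock 3). COL18A1, a basement membrane chain that yields endostatin, had 5.24, 5.09, 5.31 and 6.13 in mock against 7.05, 6.54 and 6.73 in TRIM58-WT. Its groups did not overlap but its log2 fold change of 1.24 just missed the threshold (SE 0.30, adjusted p = 0.0539); it was called higher without mock 3. Both chains are associated with epithelia, and in both mock 3 was the highest mock array.

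Among chains that sit on or between fibrils, COL12A1 read 0.22 to 0.44 on the mock arrays and 0.63 to 1.02 on the TRIM58-WT arrays (0.49, SE 0.17, adjusted p = 0.135; 0.138 without mock 3). COL16A1 read 1.5 to 1.74 in mock against 1.17 to 1.32 in TRIM58-WT (-0.37, SE 0.15, adjusted p = 0.189), whereas a second probe of the gene gave 1.07 (adjusted p = 0.0569), so its probes disagreed in sign. Neither gene was called. COL9A2, COL13A1 and COL24A1 were at background in A549.

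COL17A1 and COL8A1 were lower in TRIM58-WT than on most mock arrays but did not enter the test. COL17A1, a transmembrane collagen of hemidesmosomes, read -1.08, -1.05 and -1.02 on the arrays of mock 1 and 2 but -4.20 on mock 3, and -5.05, -4.80 and -4.79 in TRIM58-WT. That is at least 1.45-fold lower by the group means. Mock 3 was with TRIM58-WT, at background, and without it COL17A1 was tested and called lower. COL8A1, a network chain outside the rule for named genes and picked after its values were seen, read 2.31, 2.36, 1.28 and 0.18 in mock, detected on 3 of 4 arrays, and -2.46, -4.06 and -4.32 in TRIM58-WT, where it was not well above background. It was at least 13.6-fold lower in TRIM58-WT. With no filter on low signals COL8A1 was called lower.

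Of the lysyl oxidases, which cross-link collagen, 2 of the 2 tested in A549 were called. LOXL2, which acts on type IV collagen, read 3.09, 3.03, 3.12 and 4.21 in mock against 5.2, 5.08 and 5.25 in TRIM58-WT (1.72, SE 0.33, adjusted p = 0.0287; 2.09 and 0.00189 without mock 3). It lies on chromosome 8, where the median change over 377 genes was -0.50. LOXL3 read -3.04, -2.97, -3.21 and -3.05 in mock, detected on 1 of 4 arrays, and -1.32, -0.32 and -1.20 in TRIM58-WT (2.14, SE 0.29, adjusted p = 0.0106; 0.0174 without mock 3), but its second probe was detected on 1 mock array and no TRIM58-WT array. On the mock arrays where LOXL3 was not detected its level is only a bound.

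The remaining lysyl oxidases were low in A549. LOXL4 was at background on every mock array (-5.24 to -4.38) and read -1.99, -2.07 and -2.38 in TRIM58-WT, detected on 2 of the 3, which is at least 1.67-fold higher and was not tested. It was called higher with no filter and without TRIM58-WT replicate 3. LOXL1 was not detected on any A549 array, and LOX itself on none of the 11.

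SERPINH1, the chaperone that binds the collagen helix in the endoplasmic reticulum, read 4.18, 3.95, 4.32 and 4.55 in mock against 5.28, 5.65 and 5.78 in TRIM58-WT (1.26, SE 0.21, adjusted p = 0.0202; 1.38 and 0.0177 without mock 3). The groups did not overlap. P4HA1, a catalytic subunit of prolyl 4-hydroxylase, read 0.82 to 1.08 in mock against 1.85 to 1.98 in TRIM58-WT, and passed on adjusted p (0.0170) but not on size (0.96, SE 0.15); without mock 3 it was called (1.02, adjusted p = 0.0163). The other subunits P4HA2 (-0.14, adjusted p = 0.704, on chromosome 5, whose median change was -0.48) and P4HA3 (0.21, adjusted p = 0.866) overlapped between the groups.

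The lysyl hydroxylases, which prepare lysines for cross-links, were detected on all 11 arrays and none was called. PLOD2, whose product modifies the telopeptides, had a log2 fold change of 0.92 (SE 0.25, adjusted p = 0.0736), PLOD1 0.74 (SE 0.21, adjusted p = 0.0862) and PLOD3 0.33 (SE 0.21, adjusted p = 0.381). For PLOD1 and PLOD2 every TRIM58-WT array exceeded every mock array, and for PLOD3 TRIM58-WT 1 fell among the mock arrays. Without mock 3 the adjusted p was 0.0847 for PLOD2, 0.114 for PLOD1 and 0.330 for PLOD3.

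In HCC827, with 2 replicates a group, 2 of the 22 collagen genes tested were higher in TRIM58-WT, COL13A1 and COL27A1, and none was called lower. Of all 12191 genes tested 1.07% were called, 0.328% higher and 0.746% lower. The log2 change was above 0 in 18 of the 22, beside 50.9% of all genes. Its median was 0.57 beside 0.01 for all genes. COL13A1 entered the test only through TRIM58-WT, as did COL4A1 and COL7A1, which were not called. Both calls depended on the few samples: none was left without mock replicate 1 or mock replicate 2, where limma gave 11 and 9 of the genes an unadjusted p under 0.05, and COL27A1 alone was called without either TRIM58-WT replicate. Each of these fits left 1 sample in a group, and its spread was taken from the other group.

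COL13A1, a transmembrane collagen of cell adhesion sites, read -3.36 and -3.72 in HCC827 mock, not above background, and -1.26 and -1.45 in TRIM58-WT, at least 3.68-fold higher (adjusted p = 0.0360). In A549 it was at background on all 7 arrays. COL27A1 read -1.43 and -1.50 in HCC827 mock and 1.18 and 1.09 in TRIM58-WT (2.60, SE 0.13, adjusted p = 0.0243). Its second probe gave 0.66 (adjusted p = 0.168) and was not called.

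None of the genes that had risen in A549 was called in HCC827. COL4A1 read -2.54 and -3.08 in mock, detected on 1 array, and -1.57 and -2.0 in TRIM58-WT (1.03, adjusted p = 0.152), COL4A2 had 0.73 (adjusted p = 0.108), COL6A1 0.77 (adjusted p = 0.114), and SERPINH1 0.76 (adjusted p = 0.141). COL7A1, at background in HCC827 mock, was at least 1.60-fold higher in TRIM58-WT (adjusted p = 0.115). LOXL2 read 3.24 and 3.23 in mock against 4.44 and 3.97 in TRIM58-WT (0.97, adjusted p = 0.115). In each of these the TRIM58-WT arrays were above the mock arrays and none was called. LOXL3, also tested, went the other way (-0.29, adjusted p = 0.301, limma), with its TRIM58-WT arrays below its mock arrays. How many of all genes were separated in this way, with 2 arrays a group, was not counted. COL1A1, COL5A1, COL5A2, COL6A2 and COL11A2 were not detected throughout either HCC827 group and were not tested.

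Of the other genes measured in HCC827, COL17A1 read 0.41 and 0.06 in mock against -1.32 and -1.15 in TRIM58-WT (-1.47, SE 0.18, adjusted p = 0.0618), the lowest value among those tested, and was not called. It was called lower with a shift to the median and with only probes detected on all 4 arrays. COL18A1 (0.78, adjusted p = 0.0863), COL4A6 (1.18, adjusted p = 0.173) and COL4A5 (0.39, adjusted p = 0.214) had higher TRIM58-WT arrays without being called, as had LOXL1 (0.60, adjusted p = 0.127) and COL9A2 (0.40, adjusted p = 0.234). COL12A1 (0.23) overlapped between the groups, and COL24A1 had -0.33 (adjusted p = 0.319).

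No modifying enzyme was called in HCC827 by limma, with an unadjusted p under 0.05 in 5 of the 9 tested. P4HA1 had the log2 change 0.54 (adjusted p = 0.155), P4HA2 0.40, PLOD1 0.34 and PLOD2 0.23, while LOXL3 (-0.29) and PLOD3 (-0.13) were below 0. P4HA3 was at background on the 4 arrays, as were LOXL4 and LOX.

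**Figure D3:**
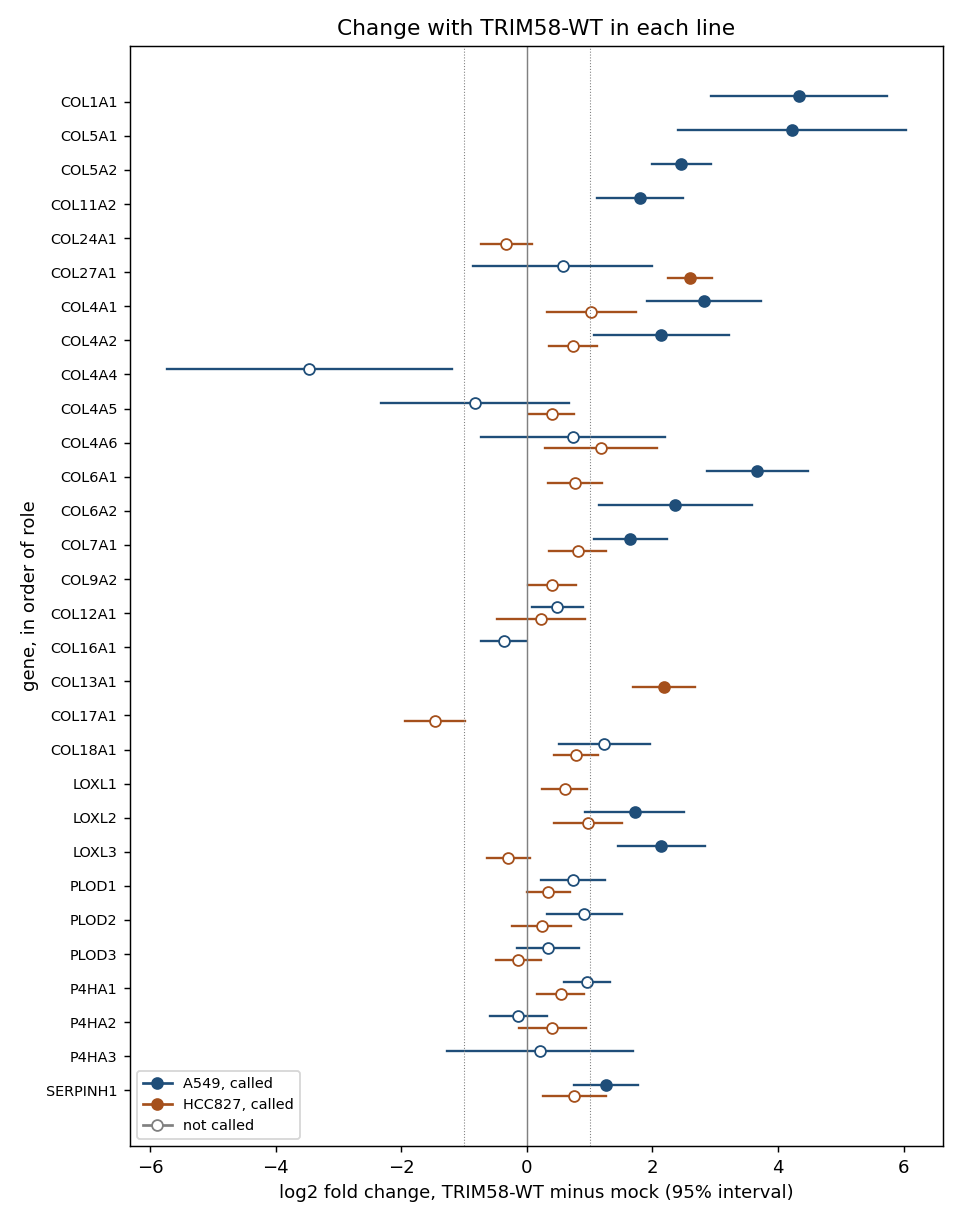
Log2 fold change of TRIM58-WT over mock with its 95% interval (limma) for the 30 genes tested in A549 (blue) or HCC827 (brown); filled points were called and dotted lines mark 2-fold. All called points lie to the right of 0, 12 in A549 and 2 in HCC827, and COL4A4 lies farthest to the left.

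The change itself was compared between the lines in a fit of all 4 groups, where the adjusted p alone decides. Of the 30 collagen genes tested, 4 differed, where 4.61% of 12838 genes did, 2.12% with the larger log2 change in A549 and 2.49% with the larger in HCC827. COL1A1 (4.87, SE 0.82, adjusted p = 0.0176), COL6A1 (2.91, SE 0.47, adjusted p = 0.0154) and LOXL3 (2.44, SE 0.40, adjusted p = 0.0164) changed more in A549, and COL13A1 (-2.02, SE 0.25, adjusted p = 0.00533) changed more in HCC827. COL13A1 was at background in 3 of the 4 groups, COL1A1 was detected throughout A549 TRIM58-WT only, and LOXL3 was detected on 1 of 4 A549 mock arrays, so these fitted differences are neither exact nor bounds. With normexp COL13A1 (-0.42, adjusted p = 0.269) and COL1A1 (1.31, adjusted p = 0.127) were not called, while COL4A1, COL5A1, COL5A2 and COL7A1 were. For COL5A1 the difference was 3.75 (95% interval 1.19 to 6.31, adjusted p = 0.112) by the brighter probe and was called by the second, with both probes at background on the HCC827 arrays. For COL4A1 it was 1.79 (95% interval 0.50 to 3.09, adjusted p = 0.131) and for SERPINH1 0.50 (95% interval -0.23 to 1.23, adjusted p = 0.452), and neither passed.

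The count of 4 depended on the samples. Without mock replicate 3 of A549 it was 10, where 2216 of all probes were called beside 796 in the main fit. Without A549 TRIM58-WT replicate 1 it was 7, where 1488 of all probes were called. It was 1 without HCC827 mock replicate 1, 2 without HCC827 mock replicate 2 and 1 without either HCC827 TRIM58-WT replicate. COL13A1 was called in each of the 10 fits that left out a replicate. Among the 17 genes tested in both lines, 13 had a log2 change above 0 in both. LOXL3 and PLOD3 had it only in A549, and COL4A5 and P4HA2 only in HCC827. The same count was not made over all genes. Of the 13, COL4A1 and COL7A1 entered the HCC827 test only through TRIM58-WT, where the filter favours a change above 0.

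The mock cells of the lines differed in many collagen genes, and most were higher in A549. Of 26 tested, 19 were called, 15 higher in A549 and 4 higher in HCC827, where 31.9% of 12394 genes were called, 15.3% higher in A549 and 16.6% lower. The log2 difference had a median of 1.64 beside -0.06 for all genes. Of the 14 that passed in both groups, 8 were called, all higher in A549. A fit of only probes detected on every mock array called the same 8, and 3376 of all its 14775 probes. Of the 19, 7 entered the test through A549 mock alone and 4 through HCC827 mock alone, so that the filter fixed their direction. The count stayed between 15 and 21 when single replicates were left out. Without mock 3 of A549, 18 of the 19 kept their call.

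The largest log2 differences were in genes that were at background in HCC827 mock. COL16A1 read 1.5 to 1.74 in A549 mock and -5.34 and -5.32 in HCC827 mock, at least 28.8-fold higher in A549, but its second probe, measured in both lines, differed by 0.12 (adjusted p = 0.738). COL5A2 was at least 50.7-fold, COL7A1 at least 41.3-fold, COL5A1 at least 40.6-fold, COL4A4 at least 26.4-fold and P4HA3 at least 8.80-fold higher in A549 (adjusted p from 9.65e-07 to 8.87e-04). COL8A1, with the same reservation as before, was at least 22.6-fold higher, and not tested.

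The other type IV chains tested were higher in A549 as well. COL4A6 read 1.05 to 2.36 in A549 mock and -2.01 and -2.51 in HCC827 mock (4.10, SE 0.63, adjusted p = 0.00101), and COL4A5 read 1.75 to 3.23 against 0.31 and 0.35 (2.38, SE 0.61, adjusted p = 0.0135). COL4A1, detected on 1 HCC827 mock array, differed by 3.32 (adjusted p = 2.52e-04) and COL4A2 by 1.97 (adjusted p = 0.00725; 1.47 and 0.00257 without mock 3). The 4 genes form the head-to-head pairs of chromosomes 13 and X.

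COL12A1 (3.11, adjusted p = 1.26e-05), COL18A1 (2.44, adjusted p = 2.42e-04) and SERPINH1 (2.27, adjusted p = 8.21e-05) were higher in A549 too, with PLOD2 (1.04, adjusted p = 0.0111; 0.97 and not called without mock 3) and P4HA2 (1.17, adjusted p = 0.00217). PLOD1 passed on adjusted p (0.00695) but not on size (0.92). COL6A1 (0.85, adjusted p = 0.0692), LOXL2 (0.23, adjusted p = 0.618), P4HA1 (0.29, adjusted p = 0.154) and PLOD3 (0.25, adjusted p = 0.338) were not called.

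The genes higher in HCC827 were LOXL3, COL9A2, COL24A1 and LOXL1. LOXL3 read 1.48 and 1.53 in HCC827 mock and -3.21 to -2.97 in A549 mock (-4.59, SE 0.28, adjusted p = 5.48e-06), so that the gene that rose in A549 TRIM58-WT remained below its HCC827 level. COL9A2, a chain of type IX collagen, was at least 2.22-fold and LOXL1 at least 1.39-fold higher in HCC827, with A549 at background. COL24A1 (adjusted p = 1.47e-04) read -3.12 and -2.86 in HCC827 mock, too near background to bound a fold against A549. COL17A1 (-2.33, adjusted p = 0.0517) was not called, and was called higher in HCC827 without any one of the 3 A549 mock replicates.

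**Figure D4:**
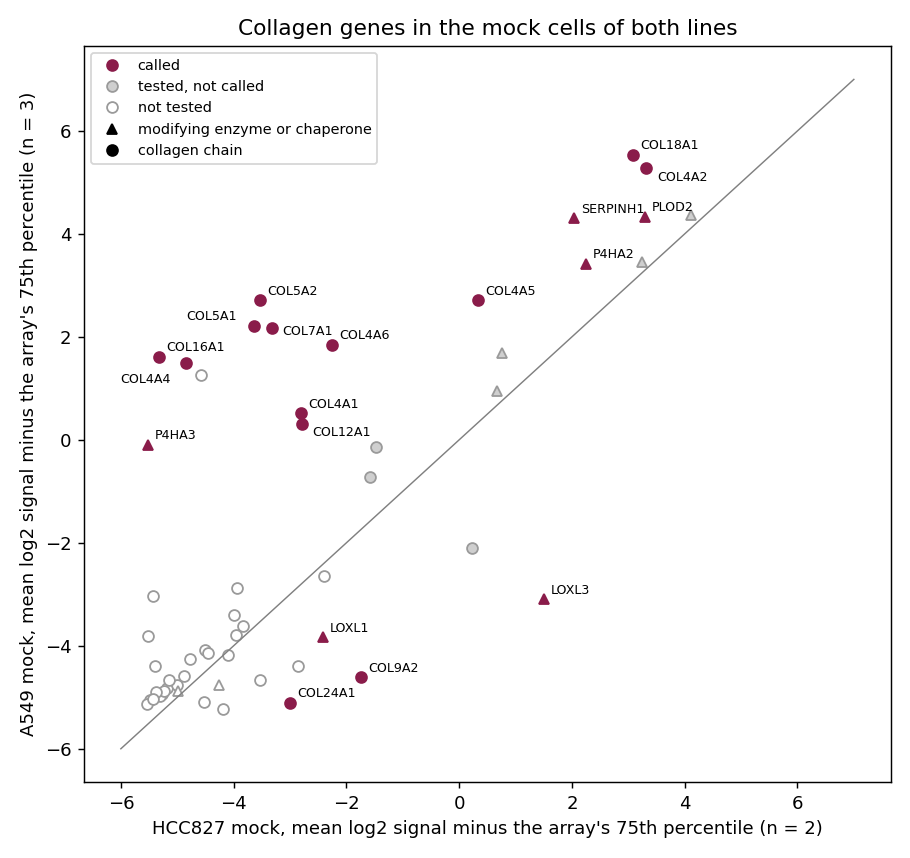
Mean log2 signal of the 56 collagen genes in HCC827 mock (horizontal axis) and A549 mock (vertical axis); the line marks equal signal, triangles are enzymes or the chaperone, and filled dark points were called. The called genes lie above the line in 15 cases and below it in 4, LOXL3, LOXL1, COL9A2 and COL24A1.

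Genes that fold and process procollagen were described by a list of 21. Of the 15 tested in A549, 2 were higher in TRIM58-WT and none lower, beside the 7.94% called among all genes. They were FKBP10 (1.71, SE 0.40, adjusted p = 0.0481; 2.14 and 0.00631 without mock 3), a prolyl isomerase of the collagen helix, and P3H3 (3.19, SE 0.46, adjusted p = 0.0127; 3.71 and 0.00114 without mock 3), of the prolyl 3-hydroxylase family. The median log2 change of the list was 0.56. FKBP10 read 1.33, 1.24, 1.65 and 2.75 in mock against 3.90, 3.31 and 3.60 in TRIM58-WT. P3H3 read 2.28, 2.11, 2.40 and 3.87 in mock against 5.65, 6.13 and 6.25 in TRIM58-WT, and in both genes mock 3 lay between the groups. In HCC827 none of 15 was called by limma, 2 had an unadjusted p under 0.05, and the median was -0.11. The change of P3H3 differed between the lines (3.56, adjusted p = 0.0226).

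Of the 12 collagen receptors, 5 were tested in A549 and 2 were higher, ADGRG1 (1.64, SE 0.15, adjusted p = 0.00314; 1.65 and 0.00415 without mock 3), which binds type III collagen, and MRC2 (3.72, SE 0.84, adjusted p = 0.0446; 4.75 and 3.76e-04 without mock 3), an endocytic receptor that takes up collagen. Of all genes tested in A549, 3.89% were called higher. MRC2 read 1.25, 1.01, 1.12 and 4.23 in A549 mock and 6.15, 5.62 and 5.86 in TRIM58-WT. Its mock 3 was thus nearer to TRIM58-WT than to the other mock arrays. In HCC827 MRC2 fell from 4.38 and 3.97 to 1.38 and 1.63 (-2.67, SE 0.20, adjusted p = 0.0340), the 1 call among 6 tested, beside 1.07% of all genes, and its change differed between the lines (6.39, adjusted p = 0.0239). No collagenase of a list of 8 was tested in A549, and none of 3 was called in HCC827, with 1 at an unadjusted p under 0.05 (limma).

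Between the mock cells, where 31.9% of all genes were called, 6 of 16 folding genes were, BMP1, CRTAP, P3H3 and PPIB higher in A549 and SEC24D and TLL1 higher in HCC827. The receptors ADGRG1 and CD44 were higher in A549 and ITGA1 in HCC827, 3 of 6 tested, and the collagenases MMP1 and MMP9 were higher in HCC827, 2 of 3 tested.

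Because fibroblasts are the usual source of type I collagen, a list of 12 fibroblast markers was read beside these results. PDGFRA, PDGFRB, DCN, FAP, PDPN, THY1, TCF21 and MEOX2 were not detected on any array. ACTA2, FBLN1 and TWIST2 were detected on all A549 arrays. Of the 12, 3 or 4 were detected on A549 mock arrays against 3 on each TRIM58-WT array. The summed level of the 12, relative to the 75th percentile, was 8.51 to 15.3 in mock against 16.2 to 37.1 in TRIM58-WT. FBLN1, part of that sum, read 2.24, 2.22, 2.32 and 3.54 in mock against 3.68, 4.73 and 5.02 in TRIM58-WT. None of the 3 tested was called (2 with an unadjusted p under 0.05, limma). They were FBLN1 (1.78, adjusted p = 0.0738), ACTA2 (0.69, adjusted p = 0.0593) and TWIST2 (-0.04, adjusted p = 0.902). Without mock 3 FBLN1 was called higher (2.20, adjusted p = 0.0295). LUM, like FBLN1 picked after its values were seen, went the other way, reading 0.07, 0.07 and -0.07 on the arrays of mock 1 and 2 and -4.18 on mock 3, and it was at background in TRIM58-WT, at least 2.36-fold lower, and was called lower without mock 3. Of 12 markers of lung epithelial lines, 8 were tested in A549 and 4 were lower in TRIM58-WT, beside 4.05% of all genes tested. They were KRT19 (at least 723-fold, at background there), EPCAM (-4.88, adjusted p = 0.0117, detected on 1 of 3 TRIM58-WT arrays), ELF3 (-1.56, adjusted p = 0.0143) and KRT8 (-1.37, adjusted p = 0.0260). All 4 were called without mock 3 as well. The summed level of all 12 epithelial markers was 1529 to 2315 in mock against 1103 to 1726 in TRIM58-WT. Each sum adds different probes and says nothing of their shares. In HCC827 none of 10 was called (4 with an unadjusted p under 0.05, limma), and the fibroblast sum was 3.37 to 4.65. The part of these markers in the collagen results was not tested.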

How the data were processed

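RNA of 11 samples was labelled with Cy3 and hybridised to Agilent 1-colour arrays. The deposited scanner files hold the spot intensity that the authors extracted (gProcessedSignal, background-subtracted by Feature Extraction; the file headers give version 11.5.1.1 and the submitters' processing notes 10.7). The authors' deposited log2 table served as an alternative. Control spots and outlier flags were left out, spots of a probe were averaged, and log2 intensity minus each array's 75th percentile was tested over 42405 probes at most. A probe was well above background when over 0.5 of its spots carried that flag. Gene names came through RefSeq accessions (27241 of 28302 probes matched). Where a group was at background, a fold is a lower bound, taken against each array's lowest flagged signal or, if higher, the probe's own. Arrays 1-1 and 1-2 of A549 mock, taken from their titles as 1 replicate, were averaged. The tests used limma 3.58.1 in R 4.3.3 with Benjamini-Hochberg adjustment over all probes tested (16924, 19563, 20642 and 19505) and were tested on simulated data. For the arrays the study names Gene Spring and Benjamini-Hochberg correction but no test; Welch's test, which it names for comparisons of groups in general, was an alternative. The 75th percentile was 56.6 to 125 and 40.1% to 50.0% of probes were well above background, none saturated; the number of arrays limits the precision. The genes named were those called, all modifying enzymes, the chains of types I, III, IV, V, VI, XII and XVIII, other chains detected throughout a group, TRIM58, and called genes of the other lists. Fibroblast markers were named whether called or not. The members and lists were chosen with earlier results of these data known. Figures used matplotlib 3.10.9.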

Additional observations from a re-analysis of the deposited data

Results flagged for a closer look

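The following genes were set aside because the test of the difference itself found that their change with TRIM58-WT differed between A549 and HCC827 (change in A549 minus change in HCC827, log2; limma, adjusted p alone). Among the collagen genes the difference was 4.87 for COL1A1, 2.91 for COL6A1, 2.44 for LOXL3 and -2.02 for COL13A1. COL1A1 was detected throughout A549 TRIM58-WT only, COL13A1 throughout HCC827 TRIM58-WT only, and LOXL3 on 1 of 4 A549 mock arrays, so these values are neither exact nor bounds. Among genes of the other lists it was 6.39 for MRC2, 3.56 for P3H3, -1.98 for KRT8, -4.89 for EPCAM and -9.79 for KRT19. KRT19 was detected on none and EPCAM on 1 of the 3 A549 TRIM58-WT arrays, so the same holds for them. No group had the 4 replicates that a test for an outlying sample needs.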

How the results depend on the processing

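No called collagen gene changed sign under any alternative. Shares of all genes at an unadjusted p under 0.05 were not counted. In A549 the 12 calls became 0 with Welch's test (16 of 25 at an unadjusted p under 0.05) and 4 with TRIM58-WT replicates 2 and 3 averaged, an alternative chosen after seeing the data; with mock 3 left out as well they were 10. They ranged from 2 to 15 when 1 replicate was left out, with 297 to 2193 called over all probes. The 2 calls in HCC827 became 1 with normexp background correction, 1 with both lines in one fit, 0 without a filter (16 at an unadjusted p under 0.05) and 0 with Welch's test (9 at an unadjusted p under 0.05), and ranged from 0 to 1 without 1 replicate; a shift to the median gave 2 higher and 1 lower, and only probes detected on every array 1 and 1. The 4 differences between the lines became 2, 1 in each direction beside 3 and 1, with a shift to the median, 1 with only probes well above background on every array, and ranged from 1 to 10 without 1 replicate; normexp gave 6, all with the larger change in A549, of which 2 were among the 4. The 19 calls between the mock cells became 8 with only probes well above background on every array. The cause was not tested, apart from the smaller number of genes (14 in the last case) or samples.

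Whether replicate numbers pair the samples could not be decided. Same-numbered deviations from the group means correlated at 0.50, -0.42 and 0.50 in A549, and those of unlike number at -0.59 to 0.57. In HCC827 the 2 same-numbered values were 0.08 and 0.08, equal by construction with 2 replicates a group. A replicate block gave 13 calls in A549 and 0 in HCC827 (limma, 13 at an unadjusted p under 0.05). In A549 normexp gave 8 of the 12. Centring on the median moved the median of all probes in A549 from 0.06 to -0.31 and left 9 of the 12 calls. A level at background is a bound. In A549 mock COL1A1 and COL6A2 rest on it on all arrays, and COL11A2 and LOXL3 on some. In HCC827 mock COL13A1 does.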
